A study of Mus musculus with 16 samples.

Results

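The genes described here are named for the eukaryotic translation initiation factors eIF1, eIF2, eIF2B, eIF3, eIF4 and eIF5, and leave out Eif6 itself. Members were all array probes, controls aside, whose gene name began with Eif followed by a digit from 1 to 5, without the eIF2 kinases (Eif2ak) and the eIF4E-binding proteins (Eif4ebp). This gave 48 genes of the 34650 gene names on the array, covered by 75 probes. The probe with the highest mean signal stood for each gene, and 47 of the 48 genes were tested. RNA came from gastrocnemius, the large calf muscle, of male C57BL6 littermates aged 8 to 16 weeks. Wild-type (WT) mice carried both functional copies of Eif6, and Eif6+/- (Het) mice carried 1 functional copy in every cell of the body. Whole-muscle RNA and RNA from the polysome fractions of a sucrose gradient were measured on 3 arrays per genotype, and monosome RNA on 2 arrays per genotype (WT replicates 1 and 2, Het replicates 1 and 3), so that there were 16 arrays in 6 groups.

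Initiation factors bring the initiator methionyl-tRNA, the messenger and the ribosomal subunits together at a start codon. Initiation sets the pace of protein synthesis in most tissues. In skeletal muscle, eIF2B and the cap-binding factors of the eIF4 group are known targets of insulin and amino acid signalling. A transcript in the polysome fractions carries several ribosomes and is being translated, a transcript in the monosome fraction carries a single ribosome, and whole-muscle RNA holds both together with free transcripts. The polysome signal minus the whole-muscle signal of the same mouse, on the log2 scale, is called loading here. It is a share of RNA within each pool and does not count ribosomes.

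By factor, the 48 genes were 6 for eIF1 (start codon recognition), 6 for eIF2 and the related Eif2a and Eif2d (delivery of initiator tRNA), 5 for eIF2B (nucleotide exchange on eIF2), 14 for eIF3 (the scaffold on the small ribosomal subunit), 13 for eIF4 (cap binding and unwinding of the messenger) and 4 for eIF5 (subunit joining, with the related elongation factor eIF5A). Grouping went by gene name alone. Eif1ad, Eif4enif1 and Eif1-ps, whose probe was listed for no RefSeq gene, were counted without a check that they share these roles. Eif5b, the GTPase of subunit joining, was not well above background on any of the 16 arrays and was not tested. For 34 of the others, all 16 arrays gave a signal well above background.

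The results turn on a small number of eIF3 subunits, and the 60-base probes that measured them are shown so that the transcript stretch behind each value can be seen. Positions are those of the array files on mouse build mm9, and the letters are in lower case throughout because no base within them is singled out. The probe of Eif3e, a core subunit, lay at chr15:43094774-43094833 on the minus strand. That of Eif3f, a subunit of the eIF3 core and a regulator of muscle size, lay at chr7:116083752-116084173 on the plus strand, that of Eif3i, a WD-repeat subunit, at chr4:129272626-129274145 on the minus strand, and that of Eif3j2, a loosely bound subunit, at chr2:121866905-121867335 on the plus strand. These 3 spans of 422, 1520 and 431 bases exceed the 60 bases of a probe.
Eif3e: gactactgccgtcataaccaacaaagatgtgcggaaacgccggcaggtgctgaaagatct
Eif3f: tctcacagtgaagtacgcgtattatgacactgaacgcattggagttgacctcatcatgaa
Eif3i: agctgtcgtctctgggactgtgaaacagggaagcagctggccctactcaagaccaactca
Eif3j2: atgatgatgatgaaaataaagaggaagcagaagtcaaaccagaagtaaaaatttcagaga

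Array brightness, the 75th percentile of the processed signal, was 13.5 to 33.0 scanner units on the Het whole-muscle arrays, 42.3 to 150 on the WT whole-muscle arrays, 24.1 to 106 on the polysome arrays and 12.7 to 36.4 on the monosome arrays. The share of spots well above background ranged from 23.5% to 45.9%. The polysome and monosome arrays of WT replicate 2 stood apart. Over 1200 pairs of probes at least 500 bases apart on the same transcript, the 5′ probe minus the 3′ probe had a median of 0.59 and 0.81 log2 units on them, against -1.35 to -0.79 on the other 14 arrays. Values without this mouse are given below where they bear on a result. All 8 fast-fibre markers checked were well above background on every array, as the labelled tissue requires. In bulk samples of this kind, fewer cells of a type and less RNA per cell cannot be told apart.

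Polysome RNA was compared with whole-muscle RNA over the 6 mice to ask which initiation factor transcripts were richer or poorer in the translated pool. The paper describes different RNA extractions for gradient fractions and for whole muscle, and their part in these differences was not tested. The probes of 4 eIF3 subunits gave less signal in polysomes, by up to 5.44-fold. None of these 4 genes had a further probe, so each value holds for the transcript stretch that its probe covers. A probe listed for another subunit, Eif3j2, and for its copy Eif3j1 was richer by 2.95-fold. In all, 3 of the 47 tested members rose (background 13.1% of all 20250 tested probes) and 7 fell (background 11.6%) at an adjusted p under 0.05 in limma. With normexp background correction, which called 28.2% of all tested probes, the split was 10 higher and 9 lower, and in the authors' log2 values, with 28.5% called, 8 members were higher and 11 lower. The median member difference was -0.04 (22 of 47 above 0), and the median of all tested probes was 0.10. Without WT replicate 2 the member median was 0.09, with 27 of 47 above 0, and 5 members were higher and 8 lower.

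**Figure D1:**
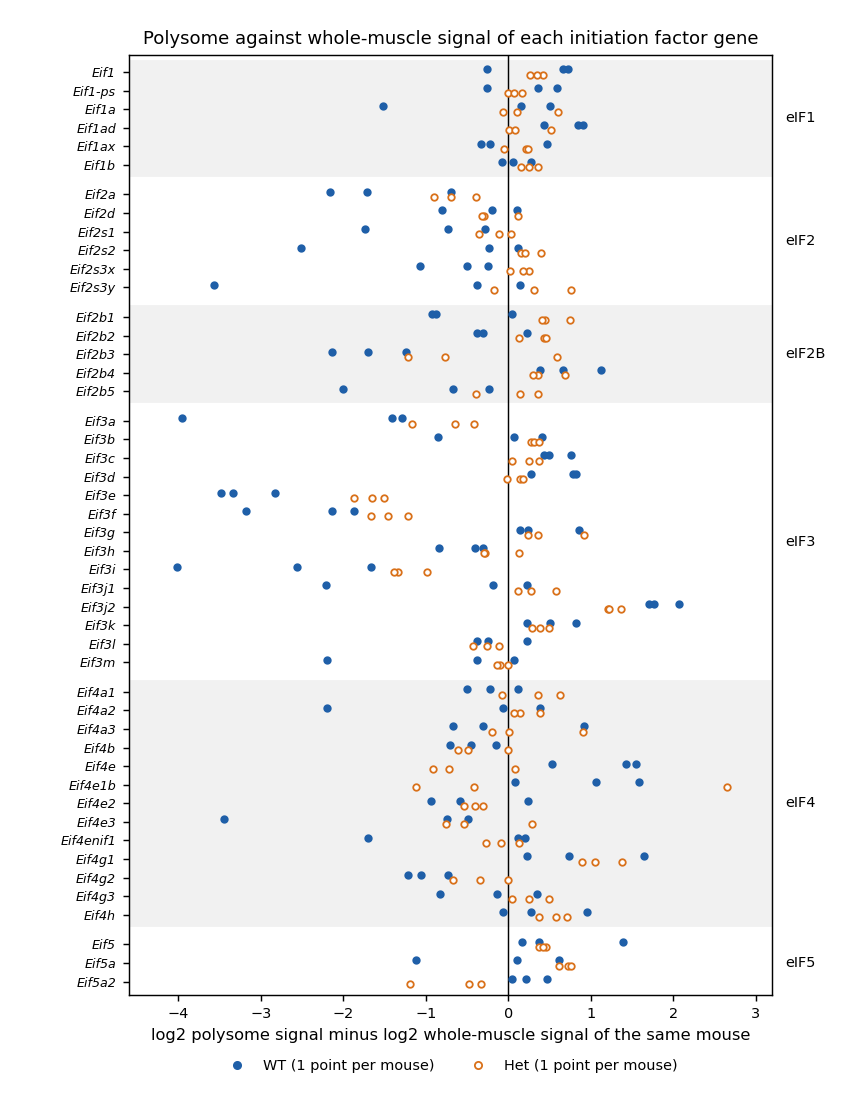
Log2 polysome signal minus log2 whole-muscle signal of the same mouse (horizontal axis) for the 47 tested initiation factor genes, grouped by factor, with 1 filled point per WT mouse and 1 open point per Het mouse. All 6 points of Eif3e, Eif3f, Eif3i and Eif3a lie left of 0, all 6 of Eif3j2, Eif4g1 and Eif2b4 lie right of it, and most other genes sit close to 0.

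Eif3e encodes a subunit that contacts the cap-binding complex. Its log2 signal was 8.70, 8.86 and 9.19 in WT whole muscle and 8.76, 8.75 and 8.76 in Het whole muscle. In polysomes it was 5.22, 6.03 and 5.86 in WT and 6.90, 7.24 and 7.11 in Het. Every polysome array was below every whole-muscle array, and every WT polysome array was below every Het polysome array. Loading was -2.44 (SE 0.16, 6 of 6 mice below 0, limma adjusted p = 0.00068). With normexp background correction the difference was -1.71, and in the authors' table, from which no background was subtracted, -1.82.

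Eif3i encodes a subunit of the eIF3b-eIF3g-eIF3i module. The whole-muscle log2 signal was 8.50, 8.22 and 8.30 in WT and 8.06, 8.22 and 8.03 in Het, and the polysome signal was 4.49, 6.56 and 5.74 in WT and 6.73, 6.84 and 7.05 in Het. Again no polysome array reached a whole-muscle array, and the WT polysome arrays spread over 2.07 log2 units. Loading was -1.99 (SE 0.29, 6 of 6 mice below 0, limma adjusted p = 0.0046), and -1.26 with normexp. Eif3b and Eif3g, the other subunits of that module, had differences of 0.10 and 0.46 (adjusted p = 0.74 and 0.099), and without WT replicate 2 that of Eif3b was -0.04.

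Eif3f gave 10.38, 10.27 and 10.02 in WT whole muscle and 10.27, 10.01 and 10.12 in Het whole muscle on the log2 scale. The WT polysome arrays gave 7.20, 8.40 and 7.88, and the Het polysome arrays 8.60, 8.79 and 8.66. All 6 polysome values were below all 6 whole-muscle values, and loading was -1.92 (SE 0.20, limma adjusted p = 0.0016). Eif3a encodes the largest subunit, on which the eIF3 core is built, and had whole-muscle values of 7.13, 7.25 and 6.91 in WT and 7.41, 7.33 and 6.84 in Het. Its polysome values were 5.72, 3.30 and 5.63 in WT and 6.24, 6.91 and 6.20 in Het, so that WT replicate 2 lay more than 2 units below any other and Het replicate 2 was the only polysome value to reach the whole-muscle range. The Eif3a probe was well above background on 2 of 3 WT polysome arrays. Loading of Eif3a was -1.48 (SE 0.36, limma adjusted p = 0.024), and -1.04 without WT replicate 2 (adjusted p = 0.0087).

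Eif3j2 moved the other way. Whole-muscle values were 8.41, 8.49 and 8.15 in WT and 8.35, 8.56 and 8.64 in Het, and polysome values were 10.18, 10.56 and 9.86 in WT and 9.73, 9.77 and 9.86 in Het. Every polysome array was above every whole-muscle array by over 1 log2 unit, and loading was 1.56 (SE 0.14, 6 of 6 mice above 0, limma adjusted p = 0.00099). The array files list this probe for transcripts of both Eif3j1 and Eif3j2, which are near-identical copies, and they list the probe that stood for Eif3j1 for the same pair. Neither signal can be assigned to 1 of the genes alone. The Eif3j1 probe, at transcript position 2224 against 265 for the Eif3j2 probe, gave -0.20 (SE 0.31, adjusted p = 0.67), and 0.17 without WT replicate 2, so probes listed for the same transcripts disagreed and the higher value holds for the probe at position 265. The remaining eIF3 members, Eif3b, Eif3c, Eif3d, Eif3g, Eif3h, Eif3k, Eif3l and Eif3m, had differences between -0.46 and 0.46 that did not pass the test. Of these Eif3m was at -0.46, and at -0.12 without WT replicate 2.

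**Figure D2:**
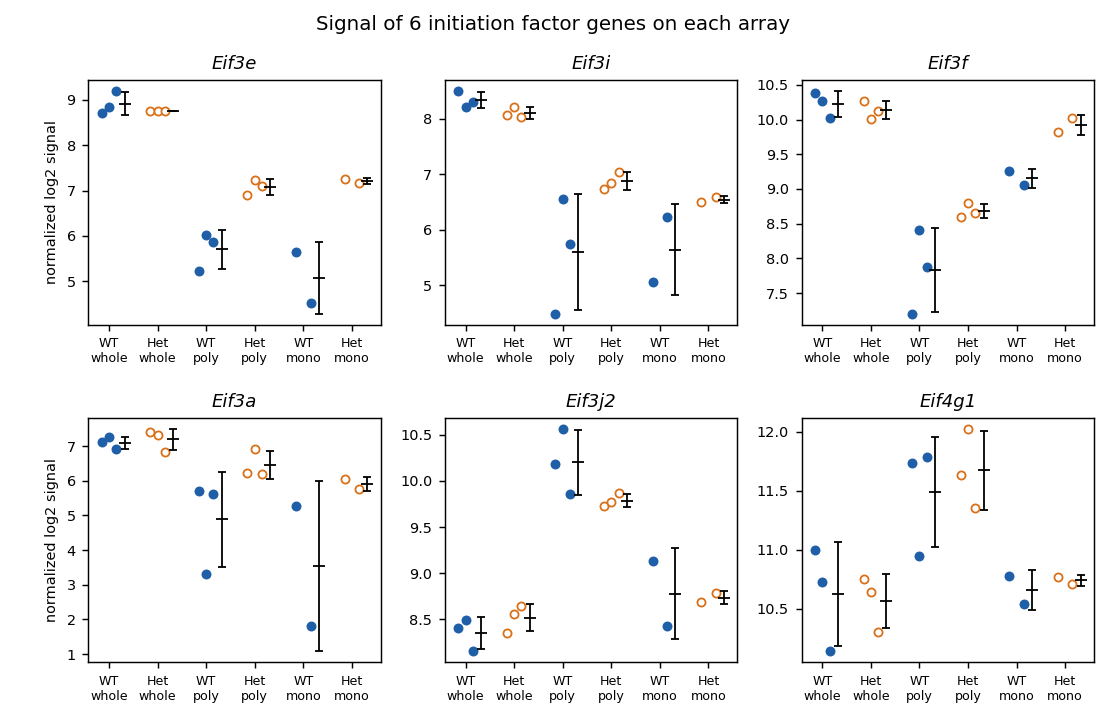
Normalized log2 signal (vertical axis, a separate scale per gene) of 6 initiation factor genes on each of the 16 arrays, in the order WT and Het whole muscle, polysome and monosome, with the mean and SD of each group as a bar. Polysome points of Eif3e, Eif3i and Eif3f lie below all whole-muscle points, those of Eif3j2 lie above them, and the WT polysome and monosome points of Eif3e lie below the Het points.

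Outside eIF3, Eif4g1, the scaffold that joins the cap-binding protein, the helicase and eIF3, was richer in polysomes. Its polysome values were 11.74, 10.95 and 11.78 in WT and 11.64, 12.03 and 11.36 in Het. Loading was 0.73, 0.22 and 1.64 in the WT mice and 0.89, 1.38 and 1.05 in the Het mice, lowest in WT replicate 2 and above 0 in all 6. The mean was 0.99 (SE 0.21, limma adjusted p = 0.016). Eif4g2, a related scaffold that lacks the cap-binding protein's site, fell by 0.67 (adjusted p = 0.023), with values of -1.21, -1.06 and -0.73 in the WT mice and -0.66, -0.01 and -0.34 in the Het mice. Eif4g3, the third scaffold, was at 0.03 (SE 0.19) with its brightest probe, and at 0.19 without WT replicate 2.

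Among the eIF2B subunits, Eif2b4, the delta subunit of the regulatory core, rose by 0.59 on the log2 scale (SE 0.16, limma adjusted p = 0.037), with loading of 0.67, 1.13 and 0.38 in WT and 0.37, 0.30 and 0.69 in Het. Eif2b3, the gamma subunit of the catalytic part, fell by 1.08 on the log2 scale (SE 0.26, adjusted p = 0.024). Loading of Eif2b3 was -2.14, -1.70 and -1.23 in WT and -1.21, 0.60 and -0.77 in Het, so that Het replicate 2 was the only mouse above 0, and its whole-muscle array was the one of the 3 Het arrays on which the probe was not well above background. Eif2b1, Eif2b2 and Eif2b5 were at -0.02, 0.10 and -0.46 and did not pass, and without WT replicate 2 Eif2b1 was at 0.06 and Eif2b2 at 0.00. Eif2a, which can deliver initiator tRNA without the eIF2 complex, fell by 1.09 on the log2 scale (SE 0.22, adjusted p = 0.012). Its loading was below 0 in every mouse, at -2.16, -0.70 and -1.71 in WT and -0.90, -0.70 and -0.40 in Het. All 6 members of the eIF2 group had a negative difference with all mice, with a median of -0.40, and Eif2a was the only one of them past the threshold. Without WT replicate 2, 4 of the 6 were negative, the median was -0.22, and Eif2s2 and Eif2s3y were at 0.10 and 0.09, Eif2s1 at -0.33 and Eif2s3x at -0.11. Eif2s1, Eif2s2 and Eif2s3x, the alpha, beta and gamma subunits of eIF2 itself, were at -0.53, -0.31 and -0.23 with all mice (adjusted p = 0.11, 0.52 and 0.34).

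No member of eIF1 or eIF5 passed the threshold with all mice. Eif1 and Eif1a, whose proteins hold the small subunit open while it scans, were at 0.36 and -0.04 (adjusted p = 0.18 and 0.94). Without WT replicate 2 they were at 0.52 and 0.27, and Eif1 passed (adjusted p = 0.030). Eif5, the GTPase activator of eIF2, was at 0.53 and Eif5a at 0.29 (adjusted p = 0.087 and 0.40), and Eif5 at 0.34 without WT replicate 2. The helicase genes Eif4a1 and Eif4a2 stood at 0.05 and -0.21, and their partner genes Eif4b and Eif4h at -0.40 and 0.47, with adjusted p between 0.095 and 0.85. Eif4a1 was at 0.12 and Eif4a2 at 0.18 without WT replicate 2, and Eif4h, at 0.59, passed there (adjusted p = 0.042).

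Fitted within each genotype, the WT mice gave 2 members higher (background 10%) and 7 lower (background 10.3%), and the Het mice gave 1 higher (background 3.34%) and 2 lower (background 4%). In Het mice alone the called members were Eif3j2 at 1.27, Eif3e at -1.68 and Eif3f at -1.45 (limma adjusted p = 0.020, 0.015 and 0.035). In WT mice alone those genes had differences of 1.85, -3.21 and -2.39 (adjusted p = 0.0045, 0.0031 and 0.0051). The difference between the genotypes is given below by its own test. Without Het replicate 1, and also without Het replicate 3, the count over both genotypes was 5 members in place of 10. The calls of Eif3e, Eif3f, Eif3i and Eif3j2 held when any mouse was left out. The Eif4g1 call was lost without Het replicate 3 (adjusted p = 0.057) and with no filter on signal (adjusted p = 0.059), and the Eif2a call without Het replicate 1 (adjusted p = 0.052). The Eif2b4 call was lost without any 1 of the 5 mice other than WT replicate 2 (adjusted p up to 0.13), with no filter (adjusted p = 0.065), with slide as a term (adjusted p = 0.055) and with 75th percentile scaling, where its difference was 0.33 (adjusted p = 0.21). Leaving out 1 mouse also ended the calls of Eif3a (Het replicate 1 or 3, adjusted p up to 0.078), Eif4g2 (WT replicate 1, Het replicate 1 or 3, up to 0.099) and Eif2b3 (WT replicate 1 or 3, Het replicate 1 or 3, up to 0.086). With no filter Eif3a and Eif2b3 were not called either (adjusted p = 0.11 and 0.098), and after adjustment a one-sample test on the within-mouse ratios did not call Eif3a, Eif2b3, Eif4g2 or Eif2a, nor did an unpaired test call Eif3a. Within slide 1 and slide 2 taken alone no member passed, and Eif3e was at -2.71 and -2.25 there.

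Several members had more than 1 tested probe, and these did not always move alike. Of 17 such genes, 8 had probes on both sides of 0 for polysome against whole muscle, namely Eif1, Eif2s2, Eif2s3x, Eif3c, Eif3k, Eif4a2, Eif4e and Eif5. Eif3h encodes a subunit that sits beside Eif3f in the complex. The brightest Eif3h probe, at transcript position 1167, gave -0.33 (adjusted p = 0.16), while the probe at position 771 gave -1.30 (SE 0.18, limma adjusted p = 0.0040), with -2.27, -1.14 and -1.48 in the WT mice and -1.06, -0.97 and -0.88 in the Het mice. Both probes were below 0 on average, and the second was below 0 in every mouse.

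Eif3k, a small peripheral subunit, had probes at positions 787, 717 and 177, with differences of 0.45, 0.31 and -0.86, of which only the last passed (adjusted p = 0.045). Eif3c, the core partner of Eif3a, gave 0.39 and 0.99 at positions 2821 and 336 of the RefSeq transcript, and -0.27 with a probe listed for an Ensembl transcript. None of the Eif3c values passed, and the probe at position 336 had 2.74 in WT replicate 2 against 0.44 to 0.83 in the other mice. A second probe passed in the same direction as the brightest for Eif2b3 (-0.78, adjusted p = 0.033), and further probes passed for Eif3m (-0.76, adjusted p = 0.035) and Eif4b (-0.97, adjusted p = 0.021), whose brightest probes did not. A further Eif4g3 probe was well above background on every polysome array, on 2 of 3 WT and on 0 of 3 Het whole-muscle arrays, and its signal in Het polysomes was at least 1.68-fold higher than in Het whole muscle.

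**Figure D3:**
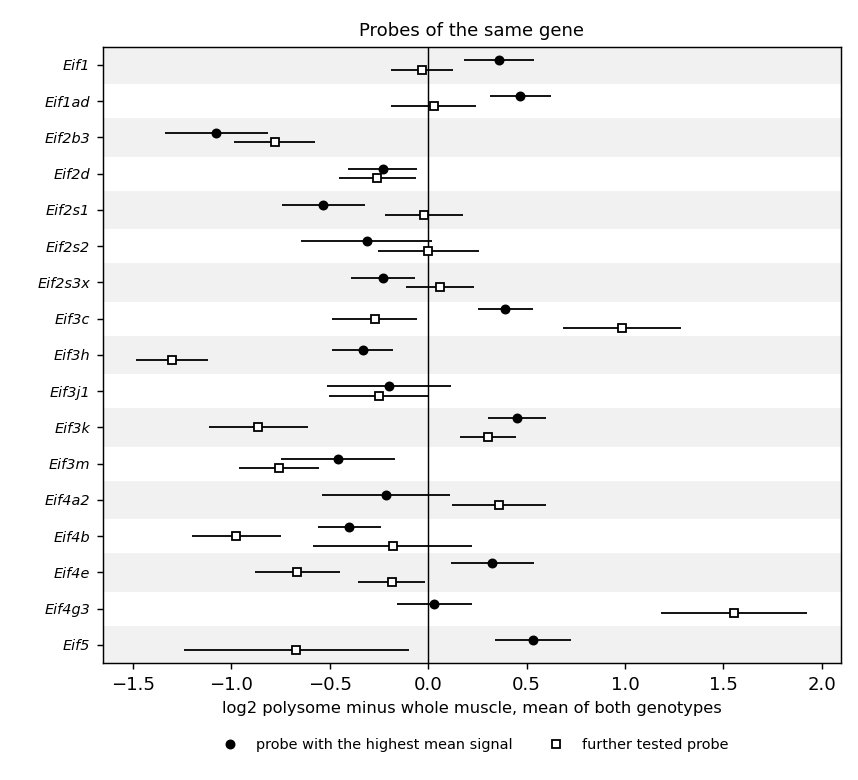
Log2 polysome minus whole-muscle difference with its standard error (horizontal axis, mean of both genotypes, 6 mice) for each tested probe of the 17 genes with several tested probes. Filled circles are the probe with the highest mean signal and open squares the further probes, which lie on the other side of 0 for 8 genes, among them Eif3k, Eif4e and Eif5.

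Polysome and monosome RNA were compared over the 4 mice with both arrays, which sets heavily loaded transcripts against those with a single ribosome. No member passed the adjusted threshold in limma, and no tested probe did (background 0%), with a smallest adjusted p among members of 0.055. At an unadjusted p under 0.05, 22 members were higher in polysomes (background 24.6%) and 4 were lower (background 16.5%). The member median was 0.65 against 0.17 over all tested probes, and 37 of 47 members were above 0 (34 without WT replicate 2). The lowest values were those of Eif3f, Eif4b and Eif5a2, and among the highest were those of Eif4a3 and Eif3j2. Eif2b3 has only a bound on this difference, given below. With WT replicate 1, WT replicate 2, Het replicate 1 and Het replicate 3 left out in turn, the member median was 0.71, 0.45, 0.70 and 0.61.

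Eif3f gave -2.05 and -0.65 in the WT mice and -1.22 and -1.36 in the Het mice for polysome minus monosome on the log2 scale. The mean was -1.32 (SE 0.31, limma adjusted p = 0.063), below 0 in 4 of 4 mice. Eif4b, whose protein stimulates the helicase, gave -1.24 and -1.03 in WT and -1.11 and -1.60 in Het, and its mean of -1.25 also lay below 0 in every mouse (adjusted p = 0.055). Its monosome values of 9.74 and 9.79 in WT and 9.48 and 9.69 in Het were above all its whole-muscle values, the highest of which was 9.20, with its brightest probe. A further Eif4b probe gave -0.39 for monosome against whole muscle and -0.83 for polysome against monosome (adjusted p = 0.48 and 0.13). Eif5a2, a tissue-restricted form of eIF5A, gave -0.94 and -1.29 in WT and -0.99 and -1.08 in Het, with an adjusted p of 0.056.

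**Figure D4:**
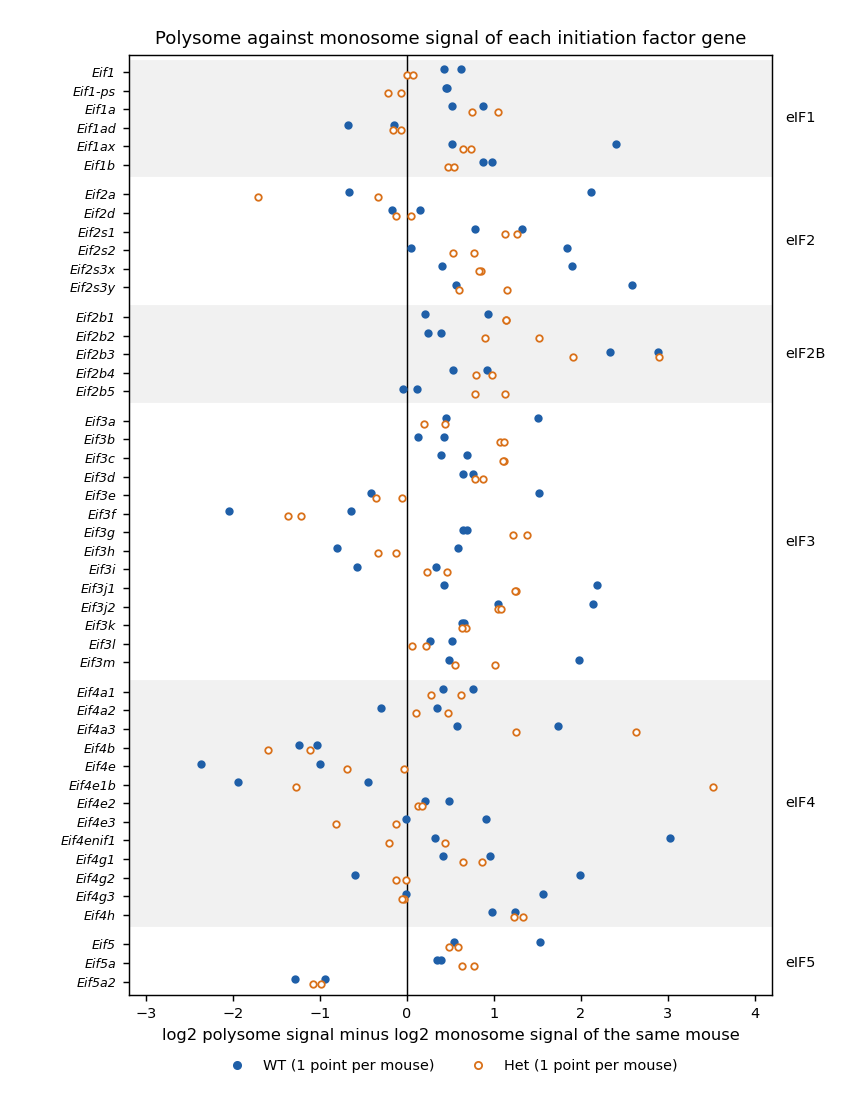
Log2 polysome signal minus log2 monosome signal of the same mouse (horizontal axis) for the 47 tested initiation factor genes by factor, with filled points for the 2 WT mice and open points for the 2 Het mice that had a monosome array. All 4 points of Eif3f, Eif4b and Eif5a2 lie left of 0, and those of all 5 eIF2B genes lie right of it except a WT point of Eif2b5 at -0.05.

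In the other direction, all 5 eIF2B members were positive, with a median of 0.80. Eif2b3 was the extreme case, because it was not well above background on any monosome array. Its whole-muscle signal was at least 3.03-fold above monosomes in WT and at least 3.78-fold in Het, and its Het polysome signal at least 2.75-fold above Het monosomes. Those folds set the mean of the brighter group against the detection level of the dimmer one. Eif3j2 gave 1.05 and 2.14 in WT and 1.04 and 1.08 in Het (mean 1.33, adjusted p = 0.057), and Eif4h gave 0.98 and 1.24 in WT and 1.23 and 1.33 in Het (mean 1.19, adjusted p = 0.055). Eif3e and Eif3i, so poor in polysomes, did not separate polysomes from monosomes, at 0.17 and 0.11 (adjusted p = 0.74 and 0.75), and at -0.31 and -0.11 without WT replicate 2.

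Monosome against whole-muscle RNA in those 4 mice likewise gave no member and no tested probe past the adjusted threshold in limma (background 0%). At an unadjusted p under 0.05, 4 members were higher (background 11.1%) and 8 lower (background 11.8%), and without WT replicate 2 these counts were 3 and 17. The difference was negative for 40 of 47 members, with a median of -0.56 against -0.10 over all tested probes. Eif3e was at -2.63 (-3.07 and -4.34 in WT, -1.51 and -1.59 in Het), Eif3i at -2.11 and Eif3a at -2.44, each below 0 in 4 of 4 mice (adjusted p = 0.18 for each). The probes of Eif3e and Eif3a were well above background on 1 of 2 WT monosome arrays. Eif3a had -1.86 and -5.46 in WT, and its difference was -1.54 without WT replicate 2. Eif3f was at -0.72 and also below 0 in 4 of 4 mice (adjusted p = 0.22). Without WT replicate 2 the member median was -0.40, with 36 of 47 negative. With WT replicate 1 left out, 21 members passed, beside 36.7% of all tested probes.

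Het and WT mice were compared in whole muscle to ask whether loss of an Eif6 copy went with altered initiation factor transcripts. Eif6 itself, which checks the genotype, was 9.66, 9.15 and 8.97 in WT and 8.39, 8.40 and 8.21 in Het whole muscle, a difference of -0.93 (limma adjusted p = 0.35) with no overlap. No initiation factor passed the adjusted threshold, which 2 of all tested probes did (background 0.00988%). At an unadjusted p under 0.05, 2 members were higher (background 3.41%) and none lower (background 5.24%). The member median was -0.01, against -0.03 over all tested probes. Eif3e, Eif3f, Eif3i and Eif3a differed by -0.16, -0.09, -0.24 and 0.10 in whole muscle, and Eif3a by 0.17 without WT replicate 2.

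The 2 members with a low unadjusted p belonged to the cap-binding group. Eif4e, the cap-binding protein, was 6.33, 8.01 and 6.96 in WT and 8.26, 7.80 and 8.65 in Het with its brightest probe, a difference of 1.13 with overlapping values (limma adjusted p = 0.57). That probe is listed by the files for a cDNA clone and for no RefSeq transcript, and lay at chr3:138189716-138189775 on mm9. The other Eif4e probes, listed for the RefSeq transcript, lay at chr3:138219236-138219295 and chr3:138220427-138220486. They gave whole-muscle differences of 0.09 and 0.29 (limma adjusted p = 0.99 and 0.86). Eif4e1b, an oocyte form of the cap-binding protein, was 3.12, 2.60 and 2.51 in WT and 4.53, 4.79 and 4.70 in Het (adjusted p = 0.56). Its probe was well above background on 1 of 3 WT and 2 of 3 Het whole-muscle arrays, so no size is given for its difference. In whole muscle, Het values lay above all WT values for 2 of 47 members (background 5.28%) and below them for 6 (background 8.32%). The Het whole-muscle arrays were all dimmer than the WT ones, and the part of brightness in the Eif4e difference was not tested beyond a fit with brightness as a term, which gave 0.43 for Eif4e.

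In polysomes, Eif3e, Eif3i and Eif3f, which were poor in that pool, had higher values on every Het array than on any WT array, by differences that did not pass the test. The same held for 12 of the 47 members (background 12.9%), Eif2b1, Eif2s1, Eif2s2 and Eif4g2 among them, and 4 members were lower on every Het array (background 8.74%). No member and no tested probe passed the adjusted threshold in limma (background 0%). At an unadjusted p under 0.05, 10 members were higher in Het (background 10.1%) and 2 lower (background 4.8%), and the member median was 0.31 against 0.04 over all tested probes. Without Het replicate 2 the counts were 5 and 0, beside 1282 of all 20250 tested probes in either direction. With array brightness as a term they were 5 and 1, beside 1857, and without WT replicate 3 they were 13 and 3, beside 3508. Eif3e was 1.38 higher (SE 0.24, limma adjusted p = 0.21). Eif3i was 1.27 higher (SE 0.41, adjusted p = 0.26) and Eif3f 0.86 higher (SE 0.28, adjusted p = 0.27). Without WT replicate 2 the differences were 1.54, 1.76 and 1.14 for Eif3e, Eif3i and Eif3f.

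Other members depended on WT replicate 2. Eif3a was 1.57 higher in Het polysomes with it and 0.77 without it. Eif2s2 had polysome values of 10.27, 7.84 and 10.27 in WT and 10.67, 10.73 and 10.62 in Het, so its difference of 1.21 became 0.40 without that mouse. Eif2s3y, the Y-linked gamma subunit of eIF2, had 7.57, 4.10 and 7.17 in WT and 6.65, 8.06 and 7.80 in Het, and its 1.23 became 0.14. For Eif2s1 and Eif3j1 the differences of 0.94 and 1.20 became 0.45 and 0.48. Eif2b1, the alpha subunit of eIF2B, had 7.64, 7.48 and 8.09 in WT and 8.75, 8.63 and 8.67 in Het, and was 0.95 higher (adjusted p = 0.21) with that mouse and 0.82 higher without it. Lower in Het at an unadjusted p were Eif3d, a cap-contacting subunit of eIF3, at -0.56 and Eif1ad at -0.47 (adjusted p = 0.27 and 0.32). The other tested Eif1ad probe gave 0.69 (adjusted p = 0.31), so no direction can be given for that gene.

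Loading was then compared between genotypes with 1 ratio per mouse. Again neither a member nor any tested probe passed the adjusted threshold (background 0%). At an unadjusted p under 0.05, 4 members were higher in Het (background 8.06%) and 2 lower (background 8.92%), and without WT replicate 2 these counts were 7 and 1. The member median was 0.38, against 0.16 over all tested probes. It was 0.21 without WT replicate 2, 0.10 within slide 2, and 0.17 with array brightness as a term, a fit in which 0 members were higher and 1 lower at an unadjusted p. The difference was positive for 34 of 47 members (background 59.3%), made up of 6 of 6 for eIF2, 4 of 5 for eIF2B, 9 of 14 for eIF3, 11 of 13 for eIF4, 3 of 6 for eIF1 and 1 of 3 for eIF5. It was positive for 31 without WT replicate 2, with 8 for eIF4, 2 for eIF1 and 2 for eIF5, and the eIF2 median went from 0.82 to 0.39. Every WT mouse lay on one side of 0 and every Het mouse on the other for 2 of 47 members, Eif2s3x and Eif5a2 (background 7.12% of all tested probes).

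Eif3e loading was -3.48, -2.83 and -3.33 in WT and -1.86, -1.51 and -1.65 in Het. The genotypes did not overlap, and the gap between them was wider than the spread within either. Het lay above WT without overlap for 11 members (background 13.4%) and below it for 5 (background 11.9%). The difference was 1.54 (SE 0.31, limma adjusted p = 0.11), and the exact permutation p was 0.1, the smallest that 3 against 3 allows. It passed the adjusted threshold with normexp (0.94, adjusted p = 0.034), in the authors' table (1.07, adjusted p = 0.033) and when only probes well above background on every array used were kept (adjusted p = 0.024). A fit that took account of brightness gave 1.45, and without WT replicate 2 it was 1.73 (adjusted p = 0.057).

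Eif3i loading was -4.01, -1.66 and -2.56 in WT and -1.33, -1.38 and -0.98 in Het, a difference of 1.51 (SE 0.58, adjusted p = 0.26). The Het values were all above the WT values, which were far apart from each other. Eif3f loading was -3.18, -1.87 and -2.14 in WT and -1.67, -1.22 and -1.46 in Het, a difference of 0.95 (adjusted p = 0.30), and with brightness as a term 0.31. For Eif3a the values were -1.41, -3.95 and -1.28 in WT and -1.17, -0.42 and -0.65 in Het, with a difference of 1.47 that became 0.60 without WT replicate 2. Eif3j2, richer in polysomes, had 1.77, 2.08 and 1.71 in WT and 1.37, 1.21 and 1.22 in Het, a difference of -0.58 with no overlap (adjusted p = 0.35). Eif4g1, also richer in polysomes, had a difference of 0.24 with overlapping values, and -0.08 without WT replicate 2.

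Eif4e had the most negative loading difference, -1.69 (SE 0.42, limma adjusted p = 0.12), with 1.43, 0.53 and 1.55 in WT and -0.91, -0.72 and 0.08 in Het. This rested on the probe without a RefSeq transcript. The other Eif4e probes gave loading differences of 0.73 and 0.14, with -0.60, -1.93 and -0.56 in WT and -0.43, -0.13 and -0.34 in Het for the first and overlapping values for the second. No direction can therefore be given for Eif4e as a gene.

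**Figure D5:**
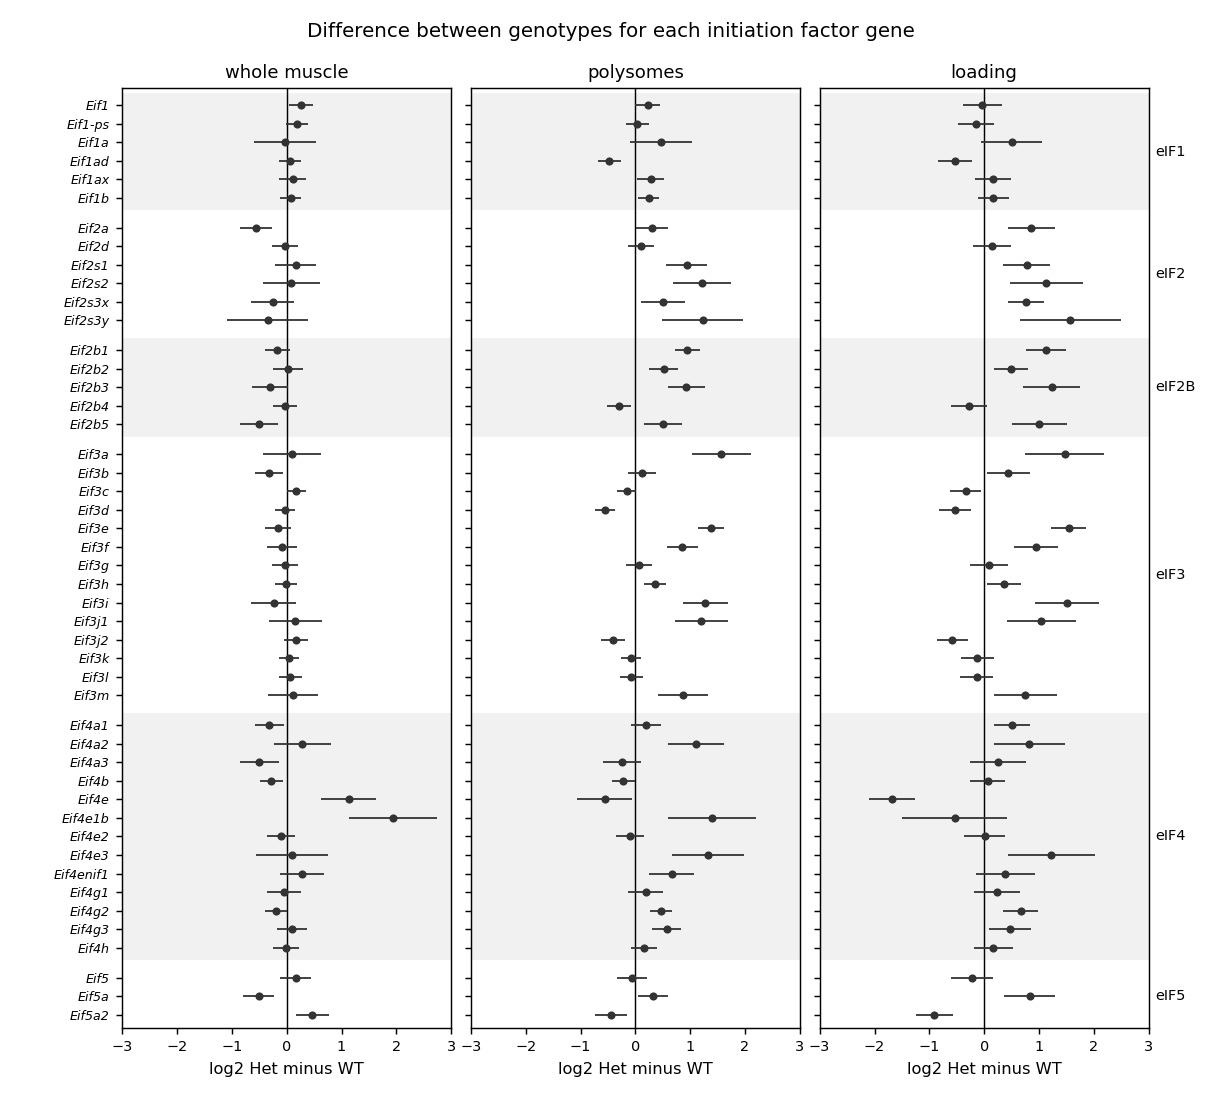
Log2 Het minus WT difference with its standard error (horizontal axes) for the 47 tested initiation factor genes in whole muscle, polysomes and loading, from 3 mice per genotype. In whole muscle most points lie near 0, while Eif3e, Eif3i, Eif3a and most eIF2 and eIF2B genes lie right of 0 in polysomes and in loading, where no gene passed the adjusted threshold.

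In monosomes, with 2 arrays per genotype, 1 member passed the adjusted threshold (background 0.499%). This was Eif3e, at 5.63 and 4.51 in WT and 7.25 and 7.17 in Het, 2.14 higher in Het (SE 0.38, limma adjusted p = 0.035). Its lower WT value, that of WT replicate 2, was not well above background, and without that mouse no member passed. At an unadjusted p under 0.05, 11 members were higher (background 19.8%) and 4 lower (background 13.2%). The Eif3e call was lost with the replicate number as a replicate block (2.07, adjusted p = 0.084). The member median of 0.50 became -0.12 without WT replicate 2. Leaving out WT replicate 1 raised the number of members called to 31, beside 53.2% of all tested probes, and leaving out any other mouse lowered it to 0.

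Markers of other cell types were measured beside these values. Of 22 tested markers of red blood cells, adipocytes, immune cells, fibroblasts and endothelium, none passed the adjusted threshold between genotypes in whole muscle, polysomes or loading. The median Het minus WT difference of the immune markers was -0.95 in whole muscle, -0.94 in polysomes and 0.02 in loading. That of the red blood cell markers was 0.07 in whole muscle, -1.15 in polysomes and -1.10 in loading. In polysomes against whole muscle, 3 of 4 tested adipocyte markers, 3 of 5 fibroblast markers and 2 of 5 immune markers passed, with list medians of 1.11, 0.79 and 0.36, and none of the red blood cell or endothelial markers did. The summed adipocyte signal was 11.8 to 12.9 on the log2 scale in whole muscle and 13.0 to 14.4 in polysomes, and the summed fibroblast signal 14.1 to 14.9 and 15.2 to 15.8. The part of these cell types in the initiation factor values was not tested.

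The other genes of the initiation pathway were taken from a list of 30, of which 29 were on the array and 28 were tested. In polysomes against whole muscle, 3 of them rose and 4 fell (backgrounds 13.1% and 11.6%). Pabpc1, the poly(A)-binding protein that bridges both ends of a messenger, fell by 1.39 on the log2 scale (SE 0.15, limma adjusted p = 0.0016), Abce1, a ribosome recycling factor, by 1.01 (adjusted p = 0.018) and Denr, which acts in reinitiation, by 0.66 (adjusted p = 0.016). The other was Mtor, the kinase upstream of cap binding, for which no fold is given because its probe was well above background on 4 of 6 arrays in each pool. The higher genes were Ppp1r15a, which targets a phosphatase to eIF2, at 1.15, Eif6 at 0.85 (adjusted p = 0.015 and 0.013) and Eif2ak2, an eIF2 kinase. No fold is given for Eif2ak2, whose probe was well above background on 1 of 6 whole-muscle and 5 of 6 polysome arrays. It passed the filter only through the Het polysome arrays, where its mean signal was highest, so its call among the 3 is no support. In WT polysomes, replicate 2 was lowest for Abce1 (7.23, 5.62 and 7.06) and Ppp1r15a (9.13, 7.58 and 8.67), and highest for Eif6 (10.25, 10.71 and 9.95). Differences without that mouse are not given for these genes. No pathway gene passed between genotypes in whole muscle, polysomes or loading. In Het loading, 6 of 28 pathway genes were higher and 0 lower at an unadjusted p under 0.05 (backgrounds 8.06% and 8.92%). The 6 include Eif2ak2, tested only through the Het polysome arrays, and Mtor, not detected on every array of either pool, so neither adds support.

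Many messengers of the translation apparatus begin with a C followed by a run of pyrimidines, a sequence through which their translation is known to respond to growth signals. Among members with a RefSeq start window, 2 of 38 (5.26%) began with C and at least 5 pyrimidines in a row on the sense strand, against 813 of 27025 gene symbols (3.01%). The call rests on the annotated first base, so a start annotated some bases away could be missed. Eif2b5, with C and a run of 4, fell short. The 2 starts that met the rule are printed because one belongs to Eif3f. They cover 10 bases before and 20 bases from the RefSeq start on GRCm38.p6, with the run in capitals. Eif3f lay at chr7:108934405-108934434 on the plus strand and Eif2s3x at chrX:94212632-94212661 on the minus strand.
Eif3f: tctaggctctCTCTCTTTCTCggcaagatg
Eif2s3x: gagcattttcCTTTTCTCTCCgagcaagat

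Both runs were 11 bases long. Loading was -1.92 for Eif3f and -0.23 for Eif2s3x. Over all genes, the 361 tested probes of genes with such a run had a median difference of 0.04 between polysomes and whole muscle, with 44 higher and 42 lower, and the 11179 tested probes of genes with a start window had 0.13, with 1720 higher and 1006 lower. No start window was matched for Eif3e, Eif3i or Eif3j2.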

How the data were processed

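Gastrocnemius RNA of 3 WT and 3 Het mice was hybridised to 16 single-colour Agilent arrays with 60-base probes. With Feature Extraction 11.0.1.1, the authors had read spot intensities that were background-subtracted and not scaled between arrays. A series matrix deposited by the authors holds log2 values whose order within each array followed the raw median signal (Spearman 1), so no background was subtracted in it. It served as an alternative, together with normexp (offset 50).

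Processed signals were log2 transformed, spots marked as outliers were left out, spots of a probe were averaged, and all 16 arrays entered the same quantile normalization. Tests covered the 20250 of 55681 probes that at least 1 of the 6 groups detected well above background on each of its arrays. Arrays give intensities and no counts, so their number limits the precision. Linear models were fitted with lmFit and eBayes of limma 3.58.1 (R 4.3.3, data.table version 1.17.8), and p-values were adjusted by Benjamini-Hochberg across every tested probe with a threshold of 0.05. Other steps used Python 3.11.15, pandas 2.3.3, numpy 2.4.6 and matplotlib 3.10.9. The fitting step was tested on simulated data.

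Polysome, monosome and whole-muscle RNA were compared as ratios within a mouse, because the design description says each mouse gave each kind of RNA. The same-number correlation of whole-muscle and polysome deviations was 0.05 to 0.26 in WT and 0.17 to 0.48 in Het. Between different numbers it was -0.34 to 0.18 in WT and -0.37 to 0.23 in Het, so the ranges overlapped. Genotypes were compared without a block. Both slides held all 6 groups. Exact permutation tests were 2-sided. A bound set the brighter group's mean against the higher of the detection level and the measured signal on each array of the dimmer group.

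The members and the lists of pathway genes and markers were chosen with earlier results of these data known. Genes named in the text were a fixed list of core factors, the 3 highest and 3 lowest members in each comparison, and members past the threshold. Members named beyond these were chosen after their values were seen. Of the 48 symbols, 47 matched the RefSeq gene table.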

Additional observations from a re-analysis of the deposited data

Results flagged for a closer look

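Loading differed in direction between the genotypes for 2 members, with every WT mouse on one side of 0 and every Het mouse on the other, as did 7.12% of all tested probes. For Eif2s3x, the X-linked gamma subunit of eIF2, loading was -0.61 ± 0.42 in WT and 0.15 ± 0.12 in Het (SD, n = 3 each). The difference was 0.76 (limma adjusted p = 0.30), which missed the threshold, and a second tested probe of the gene gave -0.05. For Eif5a2 loading was 0.24 ± 0.21 in WT and -0.67 ± 0.46 in Het, a difference of -0.91 (limma adjusted p = 0.25), which also missed the adjusted threshold.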

How the results depend on the processing

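The number of members called for polysome against whole muscle was 10, and became 19 with normexp, 19 in the authors' table, 6 with no filter, 0 within slide 1 and slide 2, 5 to 13 when a mouse was left out, and 20 at an unadjusted p. For polysome against monosome it was 0, and became 18 with 75th percentile scaling, 24 with normexp, 26 in the authors' table, 20 with only probes well above background on every array, 17 with slide as a term, 2 with the methods' t-test, 1 with a one-sample test on the within-mouse ratios, 18 with no replicate block, 24 within slide 2, 0 to 29 when a mouse was left out, 13 at an unadjusted p with a log2 difference beyond 1, and 26 at an unadjusted p alone. For monosome against whole muscle it was 0, and became 2 with the methods' t-test, 18 with no replicate block, 24 within slide 2, 0 to 21 when a mouse was left out, 9 with the size limit and 12 at an unadjusted p. Between genotypes it was 0 in whole muscle (2 and 2 at an unadjusted p with and without the size limit), 0 in polysomes (5 and 12) and 0 in loading (5 and 6), where normexp gave 1, the authors' values 2 and the stricter filter 2. In monosomes it was 1, and became 4 with normexp, 3 in the authors' table, 3 with no filter, 18 within slide 2, 0 to 31 when a mouse was left out, 7 and 15 at an unadjusted p with and without the size limit, and 0 with 75th percentile scaling, the stricter filter, brightness as a term, the methods' t-test, the replicate block and within slide 1. The methods' t-test is unpaired, and these counts follow adjustment. At the study's own threshold for polysome arrays, an unadjusted p under 0.05 with a log2 difference beyond 1, it called 7 members for polysome against whole muscle, 6 for polysome against monosome, 7 for monosome against whole muscle, and between genotypes 1 in whole muscle, 1 in polysomes, 3 in loading and 0 in monosomes. The causes were not tested, although the within-slide and left-out fits hold fewer mice.

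Directions reversed as follows. With its other probes, Eif4e gave -2.18 and -0.86 for monosome against whole muscle, 0.83 and 0.42 for Het against WT in polysomes, 0.73 and 0.14 in loading, and 3.36 and 1.62 in monosomes. With its other probe, Eif1ad gave -1.16 for monosome against whole muscle and 0.69 between genotypes in polysomes. Eif4e1b gave -0.77 between genotypes in polysomes within slide 1, and in monosomes 0.055 in the authors' table and 0.065 within slide 1. Eif3j2 loading gave 0.049 within slide 2. In monosomes between genotypes, Eif4a3 gave 0.71 within slide 1 and -2.41 to 0.079 when a mouse was left out, and the member median -0.047 within slide 1 and -0.12 to 0.81 when a mouse was left out. Both changed sign without WT replicate 2. Member medians near 0 changed sign too. That of polysome against whole muscle, -0.037, lay between -0.15 and 0.095 over all settings and was above 0 with normexp, in the authors' values, with the stricter filter, within slide 2 and without WT replicate 2. That of Het against WT in whole muscle, -0.0063, lay between -0.064 and 0.13 and was above 0 in 8 settings. Among the 3 highest and 3 lowest members of each comparison no other sign changed. Same-numbered Het and WT arrays deviated together with correlations of -0.23 to 0.22 in whole muscle and -0.33 to 0.45 in polysomes, so the numbers do not pair the genotypes. Under the replicate block no member was called between genotypes. The slide alternatives and the one-sample test were chosen after seeing the data.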
